A study of Rattus norvegicus with 6 samples.

Results

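Corticosterone, the main glucocorticoid of the rat, acts on the hippocampus through a pair of nuclear receptors, and the 9 genes described here are those receptors, an enzyme that supplies their ligand, and targets of the receptors. They were chosen by symbol: the glucocorticoid receptor gene Nr3c1, the mineralocorticoid receptor gene Nr3c2, the enzyme gene Hsd11b1, and the target genes Fkbp5, Tsc22d3, Sgk1, Zbtb16, Pdk4 and Klf9. All 9 were found, each on 1 line, among the 35362 symbols of the mRNA tables, and all 9 were at 1 FPKM or more (the level per gene length and library size) in both libraries, as were 13261 genes in 1 library or both. The unit is assumed, as no label states it.

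The samples were hippocampi of Sprague-Dawley rats, an outbred laboratory strain, with an age of 7 weeks on every label. The B[a]P group received benzo[a]pyrene, a polycyclic aromatic hydrocarbon that activates the aryl hydrocarbon receptor, at 2.0 mg/kg daily by gavage in corn oil, and the control group received corn oil, so both groups were handled and gavaged. For RNA-seq the labels state 7 weeks of gavage and do not say whether 7 weeks of age refers to the start or the end of it, nor do they give the sex, the hour of killing or whether tissue was pooled. Each group had 1 RNA-seq, 1 small RNA and 1 bisulfite library, and the last kind was not analysed here. With 1 library a group there is no spread between replicates: every ratio below compares 2 libraries, no p-value was computed, "with B[a]P" and "with corn oil" name the 2 libraries, and whether groups overlap cannot be judged.

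In the hippocampus the mineralocorticoid receptor binds corticosterone with high affinity and is largely occupied at resting hormone levels, whereas the glucocorticoid receptor is filled at the daily peak and under stress. Both bind DNA at the same palindromic response elements, and their targets are used as a readout of hormone action. Stress, hour of day and cell make-up are known to move these transcripts, and none of them is given by the labels beyond the tissue.

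The libraries differed in markers of cell types, and in bulk tissue fewer cells of a type and less RNA per cell cannot be told apart. Choroid plexus markers summed to 66.4 FPKM over the 12 listed in the B[a]P library against 3441 FPKM in the control library, led by Ttr. All 11 of them that reached the floor of 1 FPKM were lower with B[a]P, and 8 of the 11 reached it only through the control library. Of 12 oligodendrocyte markers 2 were higher and 10 lower by any amount (sums 1871 against 2144 FPKM), and 1 and 2 of them by at least 25% on the scale of FPKM + 1. Of 10 astrocyte markers 9 were higher and 1 lower (1593 against 1381 FPKM), 4 of the higher ones by 25%. All 9 neuron markers at the floor were higher, 1 of them by 25%, and the 10 listed summed to 2079 against 1801 FPKM. Microglia markers had 6 of 8 higher and 2 lower (115 against 112 FPKM), 1 of the higher ones by 25%. Endothelial and mural markers had 3 of 9 higher and 6 lower, 1 of the lower ones by 25% (the 10 listed summed to 106 against 114 FPKM). For comparison, of all 13261 genes at the floor 9885 were higher and 3376 lower with B[a]P by any amount. Most genes were thus higher by some amount. By 25%, 4.29% of all genes were higher and 2.74% lower. No listed marker was at 0 in both libraries.

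Of the 9 genes, 8 differed between the libraries by less than 25% (the higher over the lower value, on the scale of FPKM + 1), and 4 by less than 10%. Only Zbtb16 was past 25%, being higher in the B[a]P library. Nr3c2 and Klf9 were 19.7% and 19.2% higher without reaching that size, and Pdk4 had the lowest ratio. Across all 13261 genes 4.29% were higher and 2.74% lower by 25% or more, so 1 of 9 higher and 0 of 9 lower is a count too small to set against the table. The median log2 ratio of the 9 genes was 0.04 and that of all genes 0.09, with 3 genes above and 6 below the latter. No member reached 1.5-fold, which 0.603% of all genes did upward and 1.18% downward, and none reached 2-fold (0.151% upward and 0.52% downward).

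**Figure D1:**
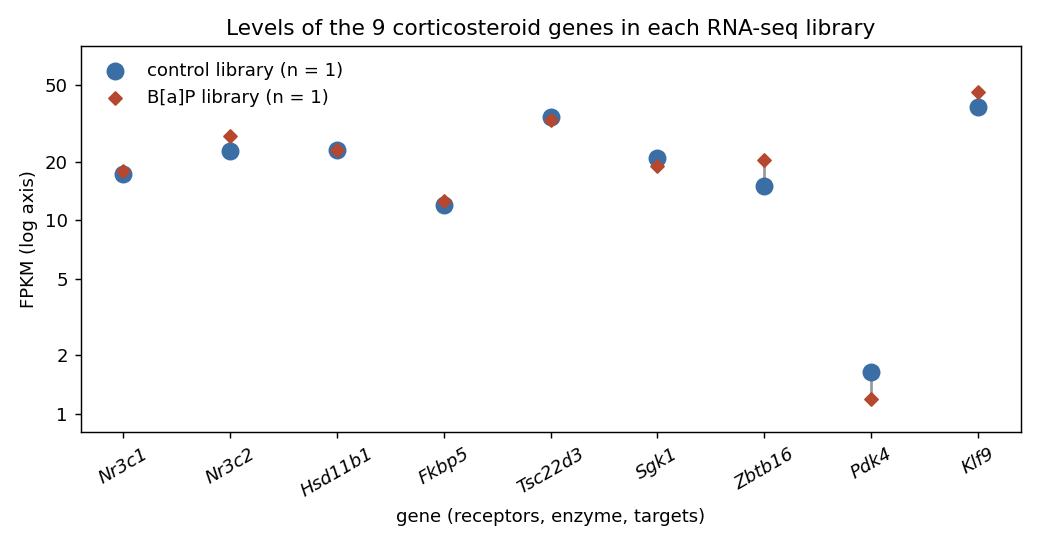
Level of each of the 9 genes in FPKM (vertical log axis) in the control library (circles) and the B[a]P library (diamonds), 1 library each, so no error bars can be drawn. The genes span 1.19 to 46.2 FPKM in the B[a]P library, with Klf9 highest and Pdk4 lowest in both, and the widest gaps between symbols are those of Pdk4 and Zbtb16.

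The receptors come first. Nr3c1 was at 17.9 FPKM with B[a]P and 17.5 FPKM with corn oil, a difference of 2.78%. The glucocorticoid receptor transcript thus stood at nearly the same level in both, and its log2 ratio of 0.04 lay in the middle of the table, at or below those of 65.1% of genes. Nr3c2 was at 27.2 FPKM with B[a]P and 22.8 FPKM with corn oil, 19.7% higher. Its log2 ratio of 0.25 was among the 1326 highest, 9.999% of the table, so a ratio of this size was not rare between these libraries. In both libraries the mineralocorticoid receptor transcript was the more abundant of the pair per gene length, by 1.52 times with B[a]P and 1.304 times with corn oil. Their level placed Nr3c1 above 77.7% and 78.6% of genes at the floor (B[a]P and control) and Nr3c2 above 85.9% and 83.8%.

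Other steroid hormone receptor genes were much lower. The progesterone receptor gene Pgr was at 3.38 FPKM with B[a]P and 2.79 FPKM with corn oil. The estrogen receptor genes Esr1 (0.279 and 0.195 FPKM) and Esr2 (0.0950 and 0.123 FPKM) lay under the floor of 1 FPKM in both libraries, as did the membrane estrogen receptor gene Gper1.

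Hsd11b1 encodes the reductase of the endoplasmic reticulum that regenerates corticosterone from its inert 11-keto form inside the cell. It was at 23.1 FPKM in both libraries (23.06 in B[a]P and 23.13 in control), a difference of -0.291% and the smallest among the 9 genes. H6pd, which supplies the cofactor for that reaction, was at 2.17 FPKM with B[a]P and 1.77 FPKM with corn oil. The opposing enzyme gene Hsd11b2, which inactivates corticosterone in kidney and other mineralocorticoid target tissue, was at 0.0922 and 0.0508 FPKM, far under the floor in both. Of the enzyme pair, the regenerating one was thus listed at a level with the receptors and the inactivating one near 0.

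Among the targets, Zbtb16, which encodes the zinc finger repressor PLZF, was the member with the highest ratio. It was at 20.6 FPKM with B[a]P and 15.01 FPKM with corn oil, 1.37-fold higher. Its log2 ratio of 0.43 was among the 196 highest, 1.48% of the table. It was past 25% under all 8 settings, from 0.34 to 0.58. These varied the pseudocount, the scaling and the use of a symbol's first line only, the last of which changed no value. Klf9, which encodes a Krüppel-like factor that binds GC-rich sequence and acts in the maturation of hippocampal neurons, was at 46.2 FPKM with B[a]P and 38.7 FPKM with corn oil. It was the most abundant of the 9 genes in both, and its difference of 19.2% came close to that of Nr3c2.

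Fkbp5 encodes a co-chaperone that lowers the hormone affinity of the glucocorticoid receptor and is itself strongly induced by it. It was at 12.5 FPKM with B[a]P and 12.1 FPKM with corn oil, a difference of 3.98%. Its relative Fkbp4, whose protein replaces it when the receptor moves to the nucleus, was at 53.4 and 57.0 FPKM, so Fkbp4 stood at 4.26 times Fkbp5 with B[a]P and 4.73 times with corn oil. Tsc22d3, which encodes the anti-inflammatory protein GILZ, was at 33.2 FPKM with B[a]P and 34.3 FPKM with corn oil. Its difference was -3.21%. The log2 ratios of Fkbp5 and Tsc22d3 were small beside the SD of 0.25 across genes, and the sign of either turned with the scaling: both were negative with equal medians (-0.03 and -0.13) and both positive with equal sums (0.20 and 0.11).

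Sgk1, which encodes a kinase that serves both receptors and acts on ion transport, was at 19.0 FPKM with B[a]P and 21.1 FPKM with corn oil, -9.89% apart. Its log2 ratio of -0.14 was among the 1056 lowest, 7.96% of the table. It became 0.01 with equal sums and -0.23 with equal medians, and was below 0 in 7 of 8 settings. Pdk4 encodes the kinase that switches off pyruvate dehydrogenase and spares glucose in fasting. It was at 1.19 FPKM with B[a]P and 1.65 FPKM with corn oil, -27.6% apart and the lowest ratio of the 9. Because its level is close to 1 FPKM, the pseudocount decides its place: the log2 ratio was -0.27 with a pseudocount of 1 and -0.43 with 0.1, and the latter is past 25%. The number of reads behind it is not known.

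**Figure D2:**
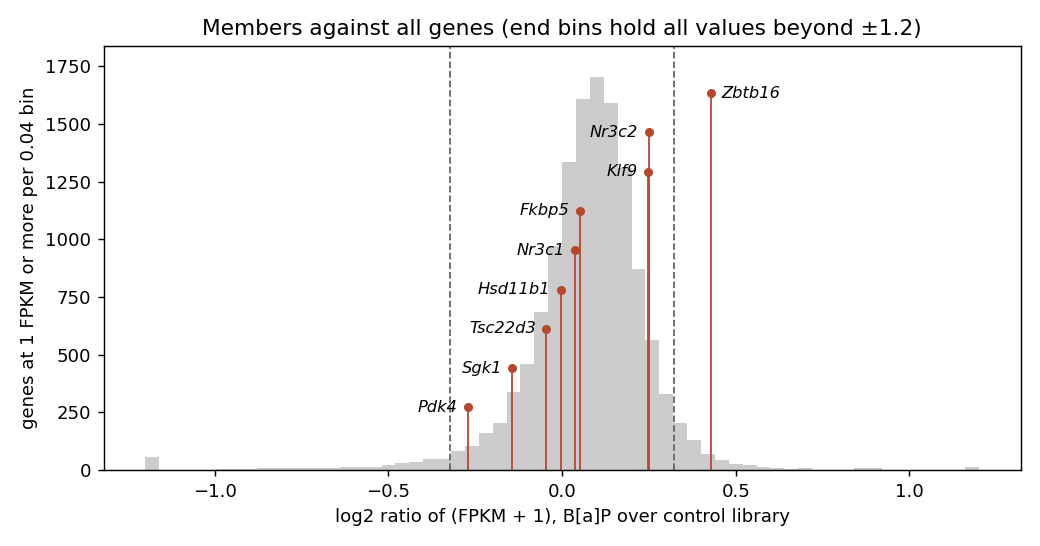
Log2 ratio of (FPKM + 1), B[a]P over control library, of the 13261 genes that reached 1 FPKM (grey bars, genes per bin) and of the 9 members (stems, whose heights only separate the labels), with dashed lines at 25%. Zbtb16 at 0.43 lies outside the lines and the other 8 members between them, from -0.27 for Pdk4 to 0.25 for Nr3c2.

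The order of levels was similar in both libraries. From the top it read Klf9, Tsc22d3, Nr3c2, Hsd11b1, Zbtb16, Sgk1, Nr3c1, Fkbp5 and Pdk4 in the B[a]P library. In the control library Hsd11b1 stood just above Nr3c2 (23.1 against 22.8 FPKM), and Zbtb16 stood below Sgk1 and Nr3c1. Neighbours in this order cannot be separated without replicates, apart from noting that Pdk4 lay 38.7 times under Klf9 with B[a]P and 23.5 times with corn oil.

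Close relatives of the members, most of which are not known as hormone targets, were read beside them. Of 14 listed relatives, 9 were at the floor, of which 0 were higher and 1 was lower by 25%, with a median log2 ratio of 0.02. The 1 was Sgk3, a kinase related to Sgk1, at 1.91 FPKM with B[a]P and 2.88 FPKM with corn oil. Fkbp4, given above, and Tsc22d1, at 56.6 and 52.9 FPKM, were the most abundant relatives. The pyruvate dehydrogenase kinase gene Pdk2 was at 20.4 and 17.9 FPKM, Pdk1 at 10.2 and 9.25 FPKM and Pdk3 at 9.85 and 9.19 FPKM. Pdk4 thus had the lowest level of its family in both libraries. Klf13, the relative of Klf9, was at 12.8 and 13.3 FPKM. A low listed value need not mean little RNA: Eno2, an enolase gene used as a marker of neurons throughout brain, was listed at 0.0865 and 0.0817 FPKM, and the relative Tsc22d4 at 0.0141 and 0.0366 FPKM.

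The wider pathway was read from 8 lists: genes that fold the receptors, serve them at DNA, supply their ligand, answer them, act around Sgk1 or belong to the stress axis, together with the relatives and the other steroid receptors described above. Together they held 114 genes, of which 113 were matched and 89 were at the floor. At 25% 1 of the 89 was higher and 7 were lower, with a median log2 ratio of 0.04. All genes gave 4.29% higher and 2.74% lower, with a median of 0.09.

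Receptor chaperones hold the unliganded receptors ready to bind hormone. Of 12 genes, 0 were higher and 1 was lower, with a median of 0.05. The lower gene was Dnajb1, a heat-inducible co-chaperone, at 19.6 FPKM with B[a]P and 25.6 FPKM with corn oil. The most abundant, Hspa8, was at 562 and 539 FPKM. The receptor coregulators, which join the receptors on chromatin, had 0 of 12 genes past 25% in either direction and a median of 0.07. Their most abundant member at these levels was Smarca4, the motor of a chromatin remodelling complex, at 24.8 and 19.8 FPKM (log2 ratio 0.31).

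Genes of corticosteroid metabolism and transport were mostly under the floor. Of 11 listed, 10 were matched and 4 were at the floor, 1 of them higher by 25%. That was Abcb1b, 1 of the paired rodent genes for P-glycoprotein, the drug pump that also carries corticosteroids out of brain, at 2.25 FPKM with B[a]P and 1.48 FPKM with corn oil. Its partner Abcb1a was at 4.15 and 3.59 FPKM. The most abundant, the steroid reductase gene Srd5a1, was at 4.49 and 4.37 FPKM. Steroid synthesis genes were at traces, among them Cyp11a1 (0.0216 and 0.00681 FPKM) and Star (0.662 and 0.728 FPKM).

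A longer list of genes known to answer glucocorticoids held 38 genes besides the 9, of which 35 were at the floor. At 25% 0 were higher and 4 were lower (all genes 4.29% and 2.74%), and the median was -0.01, with 10 genes above and 25 below the table's median. The 4 were Mt1a, a metallothionein gene (14.9 FPKM with B[a]P against 23.1 FPKM with corn oil), Lcn2, which encodes the iron carrier lipocalin (0.587 against 1.21 FPKM), Cdkn1a, a cell cycle inhibitor gene (5.04 against 7.36 FPKM), and the transcription factor gene Cebpb (12.9 against 18.0 FPKM). Lcn2 entered the list at the floor only through the control library. These 4 genes also answer inflammation, metals or DNA damage. The count depends on the scale of FPKM + 1. As plain ratios Mertk (9.80 against 7.65 FPKM) and Cables1 (7.46 against 5.92 FPKM) were also higher by 25%. So were Plin4 (1.83 against 1.45 FPKM) and Camk1g (7.02 against 5.60 FPKM), while Anxa1 (0.783 against 1.19 FPKM) joined the lower ones. Classical fast targets lay nearer to equality, with Dusp1 at 5.63 against 6.44 FPKM, Per1 at 3.44 against 3.94 FPKM and Nfkbia at 14.2 against 13.03 FPKM. Glul, the glutamine synthetase gene of astrocytes and the most abundant of the list, was at 462 against 416 FPKM, and the stress-induced actin regulator gene Fam107a at 76.8 against 62.6 FPKM.

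**Figure D3:**
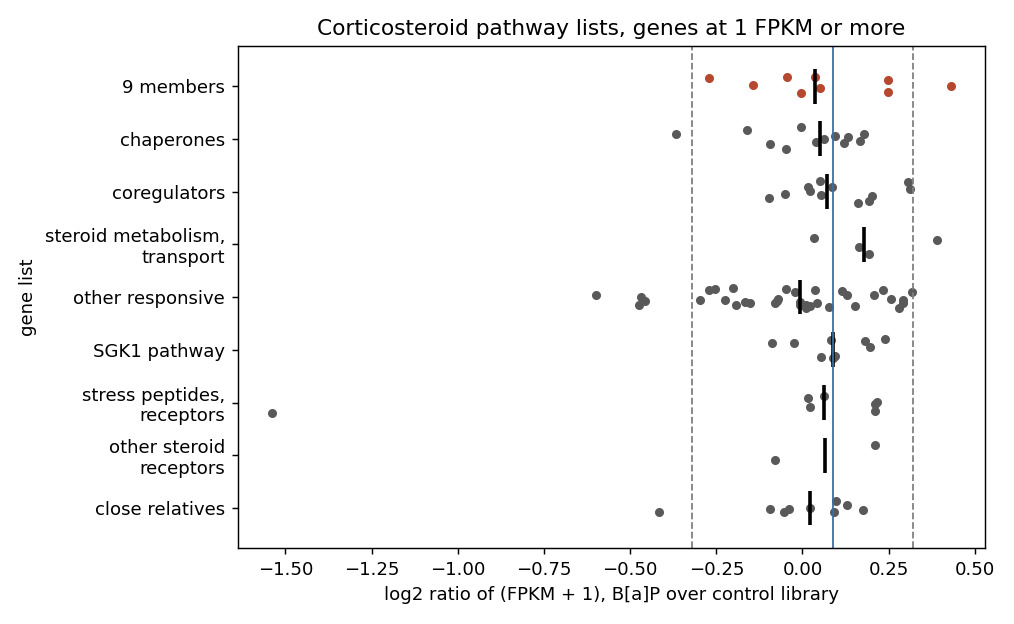
Log2 ratio of (FPKM + 1), B[a]P over control library, of each gene at 1 FPKM or more (points, spread vertically for legibility) in the 9 members and the 8 pathway lists, with list medians (black bars), the median of all genes at 0.09 (solid line) and 25% (dashed lines). Most points lie between the dashed lines, and the point farthest left is Pomc at -1.54.

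The genes around Sgk1 repeated the small size of the differences. Of 12 genes of its pathway 9 were at the floor, and 0 passed 25% in either direction, with a median of 0.09. Ndrg2, whose product is phosphorylated by the kinase and which is abundant in astrocytes, was at 307 FPKM with B[a]P and 259.7 FPKM with corn oil. The epithelial sodium channel genes Scnn1a, Scnn1b and Scnn1g, through which the mineralocorticoid receptor acts in kidney, were all under 0.1 FPKM.

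Among peptides and receptors of the hypothalamic, pituitary and adrenal stress axis, 7 of 12 genes were at the floor, 0 higher and 1 lower. The 1 was Pomc, the precursor gene of adrenocorticotropin, at 1.92 FPKM with B[a]P and 7.496 FPKM with corn oil, 3.90-fold lower. Its main site is the pituitary. The pituitary hormone genes Gh1 (2.48 against 4.95 FPKM) and Prl (0.398 against 0.611 FPKM) were lower too, 2.00-fold and 1.54-fold. Both were named after their values were seen, and Prl was under the floor in both libraries. Their part in the Pomc value was not tested. Crh, the corticotropin-releasing hormone gene of hippocampal interneurons, was at 1.60 against 1.58 FPKM, and its receptor gene Crhr1 at 1.001 against 0.724 FPKM. The most abundant gene of the list, the PACAP receptor gene Adcyap1r1, was at 35.0 against 30.1 FPKM.

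Promoter sequence was examined because the receptors bind a palindrome made of AGAACA and TGTTCT with any 3 bases between them. RefSeq windows of 300 bases (250 before and 50 after a start site, build GRCr8) were matched for 6 of the 9 genes, 11 windows in all: Nr3c1, Fkbp5, Tsc22d3, Sgk1, Pdk4 and Klf9. The full palindrome was in 0 of the 11, with or without 1 mismatch, and in 0.0149% of all 33469 windows (0.215% with 1 mismatch). Its 6-letter arm, AGAACA on either strand, was also in 0 of the 11, against 20.7% of all windows. No match says only that these letters are not in these windows. Known response elements of Fkbp5, Zbtb16 and Tsc22d3 lie in introns or farther upstream.

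The windows of the matched genes with the highest and the lowest ratio are printed to show how different the starts of these targets are. Letters 5′ to 3′ on the gene's strand are in lower case, with capitals for CCAAT boxes (CCAAT or ATTGG) and GC boxes (GGGCGG or CCGCCC), the latter being the kind of site that Krüppel-like factors bind. Klf9, on the plus strand at chr1:230126396-230126695, holds 3 CCAAT boxes starting at bases -203, -102 and -99 from the start site, the last pair overlapping, and 0 GC boxes. Pdk4, on the minus strand at chr4:34568280-34568579, holds 1 CCAAT box starting at base -153 and 2 GC boxes starting at bases -95 and 33.
Klf9: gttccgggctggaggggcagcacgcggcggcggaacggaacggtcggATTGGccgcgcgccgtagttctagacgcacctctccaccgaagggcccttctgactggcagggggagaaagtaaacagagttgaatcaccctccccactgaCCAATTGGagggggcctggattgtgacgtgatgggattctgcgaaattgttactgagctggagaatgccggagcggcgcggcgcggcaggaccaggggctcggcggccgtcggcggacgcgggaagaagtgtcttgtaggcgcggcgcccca
Pdk4: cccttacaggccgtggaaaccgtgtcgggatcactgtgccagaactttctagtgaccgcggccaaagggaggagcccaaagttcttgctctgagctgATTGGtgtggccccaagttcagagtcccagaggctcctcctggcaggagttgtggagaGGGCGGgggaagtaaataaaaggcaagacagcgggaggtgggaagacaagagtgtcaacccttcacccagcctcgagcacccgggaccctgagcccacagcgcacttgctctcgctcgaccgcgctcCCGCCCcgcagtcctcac

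A GC box was in 8 of the 11 windows and in 33.1% of all windows, and a CCAAT box in 4 of the 11 and in 37.5% of all. The letters TATAAA, on either strand, were in 3 of the 11 (1 window of Tsc22d3 and 2 of Sgk1) and in 14.2% of all. The GC content of the 11 windows had a median of 65.3%, against 51.7% over all windows, and ran from 40.7% at a start site of Sgk1 to 79.0% at a start site of Nr3c1. Several of these genes have more than 1 start site, and FPKM per gene does not tell which was used.

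The small RNA libraries were read for miRNAs listed for the receptors, Fkbp5 and the stress axis. Reports from other systems name miR-124-3p and miR-18a-5p as repressors of Nr3c1, miR-135a-5p and miR-124-3p of Nr3c2, miR-15a-5p and miR-511-5p of Fkbp5, and miR-34c-5p of Crhr1. Of 14 listed mature miRNAs, all 14 were in the tables and 11 reached 10 RPM (reads scaled to the library total) in either library. RefSeq mature sequences of 6 of them are given for comparison of their seeds, with the seed (bases 2 to 8) in capitals. miR-135a-5p and miR-135b-5p share a seed, as do miR-34a-5p and miR-34c-5p.
miR-18a-5p: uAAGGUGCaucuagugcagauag
miR-135a-5p: uAUGGCUUuuuauuccuauguga
miR-135b-5p: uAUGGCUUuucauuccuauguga
miR-16-5p: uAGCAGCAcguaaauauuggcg
miR-34a-5p: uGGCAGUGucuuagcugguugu
miR-34c-5p: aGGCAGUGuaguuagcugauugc

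As a whole, miRNA values were higher with B[a]P, with a median ratio of 1.29 over 332 miRNAs at 10 RPM or more, of which 58.7% were higher by 25% and 0.602% lower. Against that background 9 of the 11 listed miRNAs were higher by 25% and 0 lower, and 1 of the 9, miR-15a-5p, reached 10 RPM only through the B[a]P library. After scaling by the median ratio 1 of the 11 was, where the table had 7.53% higher and 3.92% lower. RPM is scaled to all reads of a library, and miRNAs took a larger part of them with B[a]P. By the steps of the values, miRNAs held 6737677 of 14.4 M reads with B[a]P and 6039463 of 16.3 M with corn oil. The part of this in the higher ratios was not tested.

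miR-124-3p, the neuronal miRNA, was at 2358 RPM in the B[a]P library and 1879 RPM in the control library, from 33856 and 30565 reads. The ratio of 1.255 (95% interval 1.24 to 1.27, exact conditional binomial, counting error only) lay just under the table's median. miR-135a-5p was at 312 against 242 RPM, a ratio of 1.29 (95% interval 1.24 to 1.35), and miR-135b-5p at 26.9 against 21.0 RPM, also 1.29 (95% interval 1.11 to 1.49). The pair that shares a seed therefore had the ratio of the table as a whole.

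miR-15a-5p was at 11.1 against 7.01 RPM, a ratio of 1.59 (95% interval 1.24 to 2.04) from 160 and 114 reads, and this interval includes the table's median ratio. miR-16-5p was at 330 against 249.7 RPM, a ratio of 1.32 (95% interval 1.27 to 1.38). miR-18a-5p had 31 and 21 reads, too few to place it (ratio 1.67, 95% interval 0.931 to 3.06), and both arms of miR-511 were listed at 0 in both libraries. Where few reads were counted, a difference from the table was thus not detectable at this depth.

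miR-34c-5p was the exception, at 1979.7 RPM in the B[a]P library and 473 RPM in the control library, 4.18-fold higher (95% interval 4.08 to 4.29). miR-34a-5p, which shares its seed, was at 57.2 against 39.6 RPM, a ratio of 1.45 (95% interval 1.303 to 1.605). The intervals of both lay above the table's median ratio of 1.29, and those of miR-124-3p, miR-101a-3p (1.14 to 1.17) and miR-101b-3p (1.16 to 1.21) below it. Without miR-34c-5p the listed miRNAs lay between -0.15 and 0.31 of the table's median on the log2 scale. Whether the RNA-seq and small RNA libraries came from the same animals is not given, so the miRNA values are set beside the mRNA values and not paired with them.

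**Figure D4:**
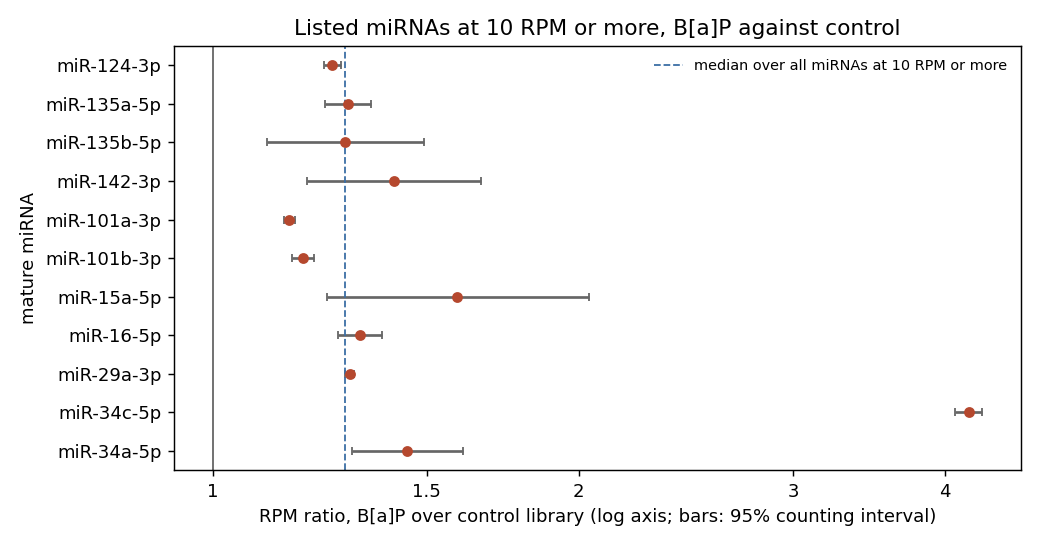
Ratio of RPM, B[a]P over control library (horizontal log axis), of the 11 listed miRNAs at 10 RPM or more, with exact 95% intervals that cover counting error only, and the median ratio of 1.29 over all 332 miRNAs at that level (dashed line). miR-34c-5p at 4.18 stands apart, and the other 10 lie between 1.16 and 1.59.

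Hippocampal subfields were represented in both libraries. The dentate gyrus marker Prox1 was at 10.5 FPKM with B[a]P and 8.15 FPKM with corn oil, the CA1 marker Wfs1 at 54.7 and 57.4 FPKM, the CA2 marker Rgs14 at 35.1 and 30.1 FPKM, and the CA3 marker Grik4 at 11.7 and 10.2 FPKM. Nr3c2 is known to be densest in CA2. The 5 CA2 markers summed to 157 FPKM with B[a]P and 122 FPKM with corn oil, and Pcp4 (112 against 82.0 FPKM) made up most of both sums. Pcp4 was the 1 of 5 higher by 25%, and 0 were lower by 25%. By any amount 4 were higher and 1 lower. The lower one was Stard5 (2.87 against 3.64 FPKM), 1.27-fold lower as a plain ratio. Of 6 dentate markers 4 were at the floor, 2 of them higher and 0 lower by 25%. Dsp (0.154 against 0.287 FPKM) and Lct (0.0224 against 0.0158 FPKM) were under the floor in both libraries. CA1 markers had 0 higher and 1 lower of 5. All genes gave 4.29% higher and 2.74% lower, and these lists are too short to set against that. Over the same 8 settings as for Zbtb16 above, Zbtb16, Nr3c2 and Klf9 had positive log2 ratios in all, Pdk4 had negative ones in all, and the sign of the other 5 members turned. The part of cell and subfield make-up in these ratios was not tested.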

How the data were processed

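Hippocampal RNA-seq and miRNA-seq libraries were used, 1 per group, grouped by sample title. Per the submitters' processing notes, bcl2fastq and the builds rn6 and rn5 were involved, in roles not stated. The aligner, counter and annotation are not given in the sources used here. No label states the unit of the mRNA tables. The deposited values were taken as FPKM by assumption, and their steps were read for scaling by library. For 80.9% of 3143 symbols listed under 0.05 in both libraries, the values were related by small whole numbers (6 at most) and a common factor. The tolerance was 0.001 on the natural log scale, and a shifted factor gave 0.191%. Gene length cancels between libraries, so the steps cannot tell FPKM from another unit scaled to depth. By the common factor the control library was 1.06 times as deep. The total depth is unknown, so FPKM values have no counting interval. The deposited miRNA values are RPM, and those under 1000 steps were whole multiples of 1 step within 0.02, the lowest being 10 steps. The steps correspond to 14.4 M reads with B[a]P and 16.3 M with corn oil.

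Ratios were differences of log2(FPKM + 1), B[a]P minus control, over genes that reached 1 FPKM in 1 library or both, which understates low genes. Folds and percentages of single genes are plain ratios. A gene counted as higher or lower when the larger of its FPKM + 1 values exceeded the smaller by 25%. Python 3.11.15, pandas 2.3.3, numpy 2.4.6 and scipy 1.17.1 were used, and the computation was tested on simulated data. The members and lists were chosen with earlier results of these data known. Named were all 9 members and, per list, up to 5 genes past 25% and the most abundant. Cell type and subfield markers are given by counts and sums with few names, and other genes named were chosen after their values were seen. Older symbols were matched through RefSeq synonyms. The bisulfite and lncRNA tables and receptor proteins were not used here.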

Additional observations from a re-analysis of the deposited data

How the results depend on the processing

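No paired analysis was possible because each group had 1 library, and for the same reason no replicate could be left out. Zbtb16 was the 1 member higher by 25% under every alternative of pseudocount, floor and scaling, but 0 members were higher at 1.5-fold and 0 at 2-fold. With a pseudocount of 0.1, 1 member (Pdk4) was lower, where 0 were with a pseudocount of 1. Scaling to equal sums made 3 members higher, adding Nr3c2 (0.40) and Klf9 (0.41), where 22.1% of all genes were higher by 25%; it rests on a single line at 1070000 and 1240000 FPKM and moved the median of all genes by 0.14. An alternative chosen after seeing the data, equal sums without that line, gave 1 higher and 0 lower. Scaling to equal medians moved the median log2 ratio of the members to -0.05.

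For the other genes of the pathway, 1 higher and 7 lower became 0 and 2 at 1.5-fold, 0 and 1 at 2-fold, 6 and 8 with a pseudocount of 0.1 (all genes 8.53% and 4.04%), 0 and 3 with a pseudocount of 5 (0.762% and 1.09%), 20 and 4 with equal sums (22.1% and 1.83%), and 1 and 10 with equal medians (2.08% and 3.80%) or upper quartiles (2.13% and 3.78%). Raising the floor to 5 FPKM gave 0 and 5 (3.17% and 1.81%). The listed miRNAs higher by 25% went from 9 to 1 after scaling by the median ratio. No symbol was on more than 1 line, so using the first line changed nothing.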

Other observations

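Corticosterone follows the clock, and several clock genes answer it. Of 15 listed clock genes 14 were matched and 13 were at the floor. By 25% 1 was higher and 0 were lower (all genes 4.29% and 2.74%), with a median log2 ratio of 0.14 (all genes 0.09). The 1 was Dbp, an output gene of the clock, at 18.1 FPKM with B[a]P and 14.2 FPKM with corn oil. Its relative Tef, the most abundant, was at 76.0 and 64.0 FPKM. Without scaling, Per1 (3.44 and 3.94 FPKM), Per2 (3.77 and 4.15 FPKM) and Cry1 (3.58 and 4.30 FPKM) were lower, and Per3 (2.43 and 1.82 FPKM) was higher. By any amount 9 of the 13 were higher and 4 lower. The hour of sampling is not given.

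Immediate early genes, which neurons switch on within minutes of activity or handling stress, had 0 of 14 higher and 6 lower by 25%. All genes gave 4.29% higher and 2.74% lower. The median log2 ratio of the 14 was -0.29. All 14 lay under the median of all genes. The 6 were Arc, which acts at synapses, at 20.8 FPKM with B[a]P and 36.5 FPKM with corn oil, and the transcription factor genes Fos (4.08 and 6.60 FPKM), Egr1 (4.83 and 7.37 FPKM), Nr4a1 (2.06 and 3.27 FPKM), Junb (28.1 and 37.8 FPKM) and Egr2 (0.645 and 1.21 FPKM). Egr2 reached the floor only through the control library. Of the 15 listed, Npas4 was left out as under the floor in both libraries, and it was higher with B[a]P (0.687 against 0.504 FPKM). Arc had the lowest log2 ratio of FPKM + 1, and Egr2 the lowest plain ratio. Junb was the most abundant. The 9 corticosteroid genes had a median of 0.04.

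Gas5, a noncoding RNA whose hairpin is known to mimic the receptor's DNA element and hold the glucocorticoid receptor off DNA, was at 38.2 FPKM with B[a]P and 37.3 FPKM with corn oil, per the mRNA table. It was looked up after the other values were seen. With 2 libraries a pattern is only a level and a ratio, and by distance in log2(FPKM + 1) the 3 genes nearest to Nr3c1 were Zrsr1 (0.00791), Snrnp35 (0.00879) and Dlgap3 (0.0125), and the 3 nearest to Nr3c2 were Arhgef4 (0.00414), Myef2 (0.0141) and Spire1 (0.0204). Within 0.1 there were 169 genes around Nr3c1 and 98 around Nr3c2, so this likeness is not specific.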
